A study of Mus musculus with 12 samples.

Results

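The 6 mammary tumour arrays of Hunk wild-type mice were divided by their level of Krt19, the keratin 19 gene, and the difference between the resulting sets was described across all genes and set beside the effect of deleting Hunk. The wild-type group held 6 of the 12 arrays of the series. The value of the Krt19 probe set was above 7, on the log2 scale of the array signal, in replicates 2, 3 and 6 and below 7 in replicates 1, 4 and 5. These 3 arrays each are called Krt19-high and Krt19-low here, and replicates are written WT1 to WT6 and KO1 to KO6. All 12 tumours came from female FVB mice with an MMTV-c-myc transgene, which drives the Myc oncogene from a viral promoter active in mammary epithelium. The other 6 arrays were of tumours from mice that carried the same transgene and the Hunk knockout, in which the putative promoter and exon 1 are replaced by a pGKneo cassette between LoxP sites. Females were mated before they were monitored for tumours, and were killed once a tumour had reached a set size. The labels used here give no ages and do not say whether each array is a separate animal, so every p-value measures the spread between these arrays. Sets defined by a measured gene are not groups of the study, and the differences between them are given as a description with no test.

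Hunk is a kinase related to Snf1, the yeast energy-sensing kinase. Keratin 19 is an intermediate filament protein of simple epithelia, and in the mammary gland it is found in luminal cells, which line the ducts and alveoli. Luminal alveolar cells make the caseins and other milk proteins when prolactin signalling and the transcription factor Elf5 drive secretory differentiation, and luminal hormone-sensing cells form a separate branch. Myc tumours of the mammary gland can hold secretory and undifferentiated epithelium in varying parts, together with stroma.

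Krt19 itself, the gene that set the division, had values of 8.20, 7.89 and 9.13 in WT2, WT3 and WT6 and of 5.43, 5.41 and 3.30 in WT1, WT4 and WT5. The arrays nearest to the cut were WT3 at 7.89 on the high side and WT1 at 5.43 on the low side. The 6 knockout arrays ran from 8.22 in KO1 to 12.51 in KO3, with KO2 at 11.33, KO4 at 10.54, KO5 at 10.05 and KO6 at 11.22. The lowest knockout array thus lay among the Krt19-high arrays, and the 3 Krt19-low arrays were below every knockout array.

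Hunk, the targeted gene, was read in every array first. It was 5.36, 4.21, 3.84, 3.32, 5.53 and 2.99 in WT1 to WT6 and 2.94, 3.03, 3.05, 2.60, 3.06 and 2.99 in KO1 to KO6. The array background, taken as the highest Bacillus control probe set of each array, was between 3.45 and 4.00. Hunk was above it in 2 of 3 Krt19-high arrays, 2 of 3 Krt19-low arrays and 0 of 6 knockout arrays, and the value of WT6 lay within the range of the knockout arrays. Its mean was 3.68 ± 0.63 (SD, n = 3) in the Krt19-high set and 4.74 ± 1.23 (SD, n = 3) in the Krt19-low set, and the sets overlapped. Hunk was lower in the knockout by 1.26 on the log2 scale (-1.26, SE 0.39) with an adjusted p of 0.181 by limma over 12393 genes, and an exact 2-sided permutation test of this single gene gave 0.0108; the knockout values are at background, so the size of this difference is not measured in full. The place of the Hunk probe set relative to the deleted exon is not given in the sources used here.

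A gene was counted as different between the sets when its 3 Krt19-high values did not overlap its 3 Krt19-low values and the means differed by at least 1 on the log2 scale. Of 6825 genes tested, 127 (1.86%) met this. The Krt19-high set was higher in 34 (0.498%) and lower in 93 (1.36%). Because Krt19 chose the arrays, these counts support nothing by themselves. Without the size requirement, 801 genes (11.7%) did not overlap. Of the 34 genes, 19 had the nearest arrays of the sets at least 0.5 apart, as did 40 of the 93. All values here are log2 GCRMA signals and all differences are log2 differences unless a fold is named. In whole tumours, fewer cells of a type and less RNA per cell cannot be told apart.

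Milk protein genes were the most different of the genes higher in the Krt19-high set. Csn1s1, which encodes alpha-S1 casein, was 11.21, 10.31 and 4.30 in WT2, WT3 and WT6 and 3.14, 3.13 and 3.07 in WT1, WT4 and WT5. All 3 Krt19-low arrays were at background, so the difference of 5.49 is given as at least 32.8-fold. The Csn1s1 signal was therefore high in 2 of the 3 Krt19-high arrays and close to background in WT6. Csn2 and Csn1s2a, other casein genes chosen after their values were seen, showed the same 2 arrays: Csn2 was 12.85, 12.48 and 2.21 in WT2, WT3 and WT6, and between 2.21 and 2.25 in the Krt19-low arrays. Csn1s2a was 10.82, 8.84 and 3.32 in the Krt19-high arrays and between 3.30 and 3.41 in the others. Neither met the count's rule, since WT6 fell among the Krt19-low arrays. Casein expression within the knockout was also split: Csn1s1 was 12.69, 12.99 and 13.31 in KO2, KO3 and KO6 but 3.10, 3.13 and 3.18 in KO1, KO4 and KO5.

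Ltf, the iron-binding milk and defence protein lactotransferrin, was 11.39, 7.96 and 7.14 in WT2, WT3 and WT6 and 2.55, 4.10 and 5.76 in WT1, WT4 and WT5. The difference was 4.69, or 25.8-fold, and all 6 knockout arrays lay at 10.33 or above. Elf5 was 9.84, 9.53 and 9.69 in the Krt19-high arrays and 7.13, 7.63 and 7.27 in the Krt19-low arrays, a difference of 2.34. Its 6 knockout values ran from 9.87 to 11.29, just above the Krt19-high arrays. On this probe set Elf5 thus differed between the sets with little spread inside either, unlike Csn1s1. The other Elf5 probe set was 5.82, 4.75 and 7.90 in WT2, WT3 and WT6 and 2.73, 3.29 and 2.89 in WT1, WT4 and WT5. Its knockout values ran from 4.56 to 8.93, so all 3 Krt19-high arrays lay inside the knockout range there.

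Of the list of milk and secretory genes, 15 of 19 passed the filter on low values, 2 were higher in the Krt19-high set (Csn1s1 and Ltf) and 0 were lower, beside 0.498% and 1.36% of all genes tested. The median difference of the list was 0.81, beside 0.02 for all genes tested. The filter keeps a gene whose mean over all 12 arrays is above 3.98, so a gene high in any array set could pass through that set. Csn3, the kappa casein gene, was high in every wild-type array, from 11.15 in WT4 to 13.88 in WT2. Wap, whey acidic protein, was between 4.39 and 6.15 in every wild-type array and above 10.6 in KO2, KO3 and KO6.

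The promoters of Csn1s1, Cyp2f2 and Chpt1, all higher in the Krt19-high set, and of Bex4, the gene tested with the largest difference in the other direction, are shown as the 250 bases before the RefSeq gene start on the GRCm38.p6 build, read 5′ to 3′ on the gene's own strand. Capitals mark matches to TTCNNNGAA, the letters bound by Stat5, the transcription factor of prolactin signalling, and to CACGTG, the E-box bound by Myc. Csn1s1 lies at chr5:87665958-87666207 on the plus strand, Cyp2f2 at chr7:27119705-27119954 on the plus strand, Chpt1 at chr10:88503971-88504220 on the minus strand and Bex4 at chrX:136138746-136138995 on the plus strand.
Csn1s1: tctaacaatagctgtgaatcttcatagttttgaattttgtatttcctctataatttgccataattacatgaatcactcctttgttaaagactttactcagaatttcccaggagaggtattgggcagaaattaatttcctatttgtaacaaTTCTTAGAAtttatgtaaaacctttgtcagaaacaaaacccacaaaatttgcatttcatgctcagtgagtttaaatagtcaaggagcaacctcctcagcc
Cyp2f2: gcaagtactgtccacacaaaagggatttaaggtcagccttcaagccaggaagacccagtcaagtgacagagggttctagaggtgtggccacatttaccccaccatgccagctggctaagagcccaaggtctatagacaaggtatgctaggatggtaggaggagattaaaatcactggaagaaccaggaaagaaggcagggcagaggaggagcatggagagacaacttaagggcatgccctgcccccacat
Chpt1: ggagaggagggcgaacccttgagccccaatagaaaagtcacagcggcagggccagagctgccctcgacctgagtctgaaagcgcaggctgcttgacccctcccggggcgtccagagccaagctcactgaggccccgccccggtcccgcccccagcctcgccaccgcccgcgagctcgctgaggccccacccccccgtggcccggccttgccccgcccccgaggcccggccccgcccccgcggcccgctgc
Bex4: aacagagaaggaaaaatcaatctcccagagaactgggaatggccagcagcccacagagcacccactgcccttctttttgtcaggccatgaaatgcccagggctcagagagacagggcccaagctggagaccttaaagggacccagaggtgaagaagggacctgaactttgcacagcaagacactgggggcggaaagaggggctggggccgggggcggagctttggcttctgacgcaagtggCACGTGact
The Csn1s1 match begins 100 bases before the gene start and the Bex4 match 9 bases before it. Genes and motifs were picked after the values and these windows had been seen, and both motifs read the same on either strand. TTCNNNGAA is in 7.18% of 27025 such RefSeq windows, in 5.93% of the 5579 windows of genes tested, in 1 of 29 windows of genes higher in the Krt19-high set and in 4 of 72 of genes lower in it. CACGTG is in 6.05% of all windows, in 8.75% of those of genes tested, in 1 of 29 and in 7 of 72. CCGGAAGT, an ETS motif searched on both strands, is in 2.93% of all windows, in 6.72% of those of genes tested, in 0 of 29 and in 3 of 72, and its core GGAA is in 93.4% of all windows. A match is a run of letters, not a shown binding site.

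Cyp2f2, a cytochrome P450 best known for oxidising naphthalene in airway club cells, was 6.91, 6.50 and 5.87 in WT2, WT3 and WT6 and 2.56, 2.55 and 2.48 in WT1, WT4 and WT5. The Krt19-low arrays were all at background, giving at least 7.24-fold. Chpt1, choline phosphotransferase 1 of phosphatidylcholine synthesis, was 8.16, 8.85 and 8.69 in the Krt19-high arrays and 7.43, 6.68 and 6.05 in the Krt19-low arrays. All 4 probe sets of Chpt1 had the same direction, with differences between 0.34 and 2.21. Every knockout array was above every wild-type array for Chpt1, from 10.23 to 11.25, and Cyp2f2 ran from 6.42 to 10.75 in the knockout.

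Slc28a3, a sodium-coupled nucleoside transporter, was 8.70, 7.73 and 7.95 in WT2, WT3 and WT6 against 4.89, 4.87 and 4.16 in WT1, WT4 and WT5, a difference of 3.48. Thrsp, a regulator of lipogenesis in the lactating gland, was 9.71, 10.09 and 9.99 against 8.11, 7.79 and 5.37. Car2, carbonic anhydrase 2, was 7.63, 7.64 and 9.31 against 6.26, 3.91 and 4.54. In these 3 genes all knockout arrays lay above all Krt19-low arrays, with Slc28a3 between 7.67 and 10.21, Thrsp between 9.96 and 12.03 and Car2 between 7.58 and 10.25. None of the 3 passed the test of the knockout against all wild-type arrays, with limma adjusted p of 0.114 for Slc28a3, 0.119 for Thrsp and 0.199 for Car2. Slc29a1, an equilibrative nucleoside transporter, went the other way, at 4.73, 6.97 and 7.86 in WT2, WT3 and WT6 against 9.96, 8.32 and 8.56.

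Other higher genes were less even. Crabp2, a carrier of retinoic acid, was 6.92, 7.66 and 9.53 in the Krt19-high arrays and 5.57, 5.58 and 4.99 in the Krt19-low arrays. Chst2, a carbohydrate sulfotransferase, was 8.11, 5.88 and 6.59 against 3.94, 4.29 and 4.84. In the knockout, Crabp2 was above 10 in KO2, KO3 and KO6 and below 6 in KO1, KO4 and KO5, and Chst2 split along the same arrays. Eras, an embryonic Ras gene, was 11.41 in WT6 and 4.71 or lower in the other 11 arrays, so its difference of 2.53 rested on 1 array. Saa1, an acute-phase protein gene, was 9.03 in WT6 and at background in the other 5 wild-type arrays.

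Igfbp2 and Tgfbi had knockout levels like those of the Krt19-low set. Igfbp2, an insulin-like growth factor binding protein, was 8.53, 7.25 and 8.21 in WT2, WT3 and WT6, 4.96, 5.54 and 5.90 in WT1, WT4 and WT5, and 5.48 to 5.83 in the knockout. Tgfbi, a matrix protein induced by TGF-beta, was 8.06, 7.52 and 7.65 against 5.38, 6.65 and 6.63, with 5.79 to 6.96 in the knockout. For both, every knockout array was below every Krt19-high array. Neither passed the test of the knockout against all wild-type arrays, with limma adjusted p of 0.282 for Igfbp2 and 0.349 for Tgfbi.

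**Figure D1:**
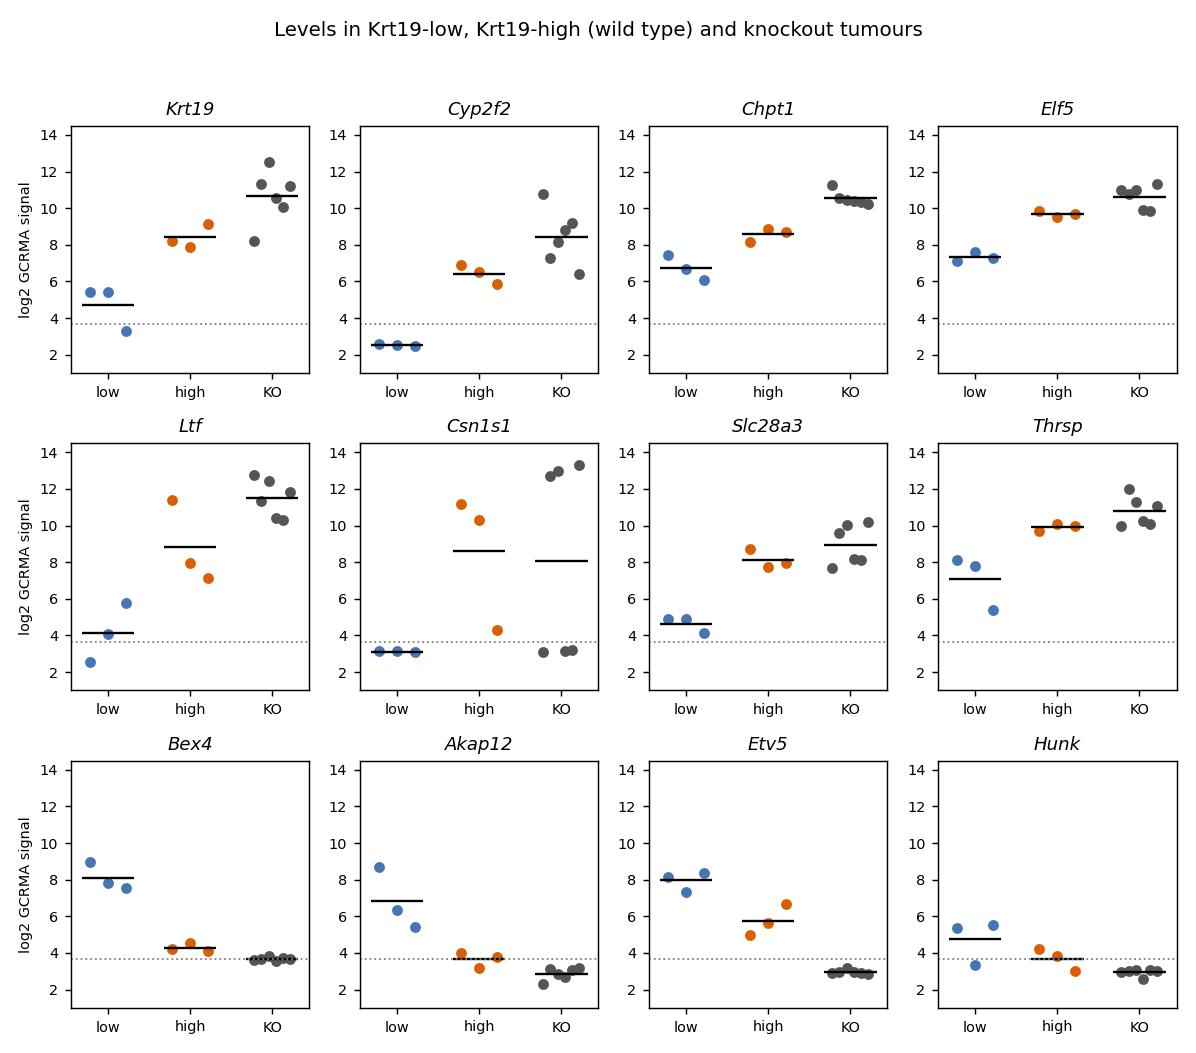
Each panel plots the log2 GCRMA signal of 1 gene, with 1 point an array in the Krt19-low wild-type (low, n = 3), Krt19-high wild-type (high, n = 3) and knockout (KO, n = 6) sets; bars are set means and the dotted line is the mean array background. Elf5, Slc28a3 and Thrsp of the Krt19-high arrays lie near the knockout arrays, Csn1s1 is divided within both the Krt19-high and the knockout arrays, and Bex4 and Akap12 are raised in the Krt19-low arrays alone.

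The 93 lower genes were led by Bex4, a small X-linked gene of the brain-expressed family. Bex4 was 8.94, 7.80 and 7.57 in WT1, WT4 and WT5, 4.21, 4.52 and 4.08 in WT2, WT3 and WT6, and 3.57 to 3.85 in the knockout. The difference was -3.84, or 14.3-fold, with no overlap and little spread outside the Krt19-low arrays. Bex2 of the same family was 6.75, 7.28 and 6.31 in the Krt19-low arrays and 3.35, 5.21 and 4.62 in the Krt19-high arrays. Bex1 was lower in the knockout than in the wild type, by -3.88 (SE 0.67, limma adjusted p = 0.0107), but overlapped between the Krt19 sets, and Bex3, looked at after these values were seen, was between 8.87 and 9.83 in all 12 arrays.

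Col2a1, the type II collagen gene, was 7.65, 6.40 and 8.20 in WT1, WT4 and WT5 against 3.97, 4.16 and 4.21 in WT2, WT3 and WT6. Sema3b, a secreted semaphorin, was 9.41, 5.94 and 5.71 against 4.17, 3.69 and 3.64. Akap12, a scaffold for protein kinase A, was 8.69, 6.32 and 5.41 against 3.98, 3.16 and 3.79. In each of these 3 genes WT1, WT4 and WT5 stood above the other 9 arrays of the series. The same held for Cavin2, a caveolar coat protein, at 7.85, 5.87 and 7.70 against 3.74, 3.92 and 4.65, and for Fgg, the fibrinogen gamma chain, at 8.05, 5.87 and 5.86 against 3.85, 3.57 and 3.76. Inhbb, the beta B subunit of activins and inhibins, was 6.06, 5.69 and 7.47 against 2.80, 3.25 and 5.10, so WT6 lay between the sets. None of these 6 genes passed the test of the knockout against all wild-type arrays, and limma adjusted p ran from 0.0815 for Sema3b to 0.288 for Fgg.

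Hspb1, a small heat shock protein gene, and Emb, the membrane glycoprotein embigin, were lower in the Krt19-high set but not uniformly low in the knockout. Hspb1 was 9.06, 9.62 and 10.22 in WT1, WT4 and WT5, 5.76, 8.52 and 7.24 in WT2, WT3 and WT6, and 7.37 to 9.90 in the knockout. Emb was 7.85 and 7.94 in KO4 and KO5 and 4.74 or lower in the other knockout arrays. Tgfb1, the TGF-beta 1 ligand gene, was 6.78, 5.75 and 7.37 against 4.25, 5.70 and 5.22, with the nearest arrays of the sets 5.75 and 5.70.

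The knockout was compared with all 6 wild-type arrays by limma across the same 6825 genes. At an adjusted p under 0.05, 113 genes (1.66%) were higher and 115 (1.68%) lower in the knockout, 228 (3.34%) in all. With each array centred on its median, 68 were higher and 126 lower. Arrays KO4 and KO5 differed from each other less than any other pair, with a standard deviation of their difference over probe sets of 0.338. The next pair of the series, at 0.531, was WT3 of the Krt19-high set and WT4 of the Krt19-low set. Wild-type pairs inside a Krt19 set ran from 0.593 to 0.739 and pairs across the sets from 0.531 to 0.888, so these ranges overlapped. With KO4 and KO5 averaged as 1 sample, 60 genes were higher and 65 lower in the knockout. Leaving out 1 array at a time gave 44 to 102 higher and 51 to 122 lower, the fewest without WT4.

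Both comparisons contain the wild-type arrays, so the same wild-type values of a gene enter both, and no overlap between the comparisons is tested. Of the 34 genes higher in the Krt19-high set, 8 were also higher in the knockout, which is 23.5% of that list and 7.08% of the 113 genes, beside 1.66% of all genes tested, and Krt19, which made the division, is 1 of the 8. Of the 93 lower genes, 9 were also lower in the knockout, 9.68% of that list and 7.83% of the 115, beside 1.68% of all genes tested. No gene (0) was counted in opposite directions, while Ctnnal1 and Dcxr were when WT6 was left out and Cryab when WT3 was. The median knockout change was 1.15 over the 34 genes and -0.88 over the 93, beside 0.01 over all genes tested. Set against each wild-type set by itself, the knockout mean lay a median of 0.30 above the Krt19-high mean and 1.99 above the Krt19-low mean over the 34 genes. Over the 93 genes it lay -0.01 from the Krt19-high mean and -1.57 from the Krt19-low mean, while over all genes tested both medians were 0.01. The 34 and the 93 genes were chosen by their difference between the wild-type sets. A gap between the 2 medians of each list therefore follows from that choice and supports nothing by itself.

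**Figure D2:**
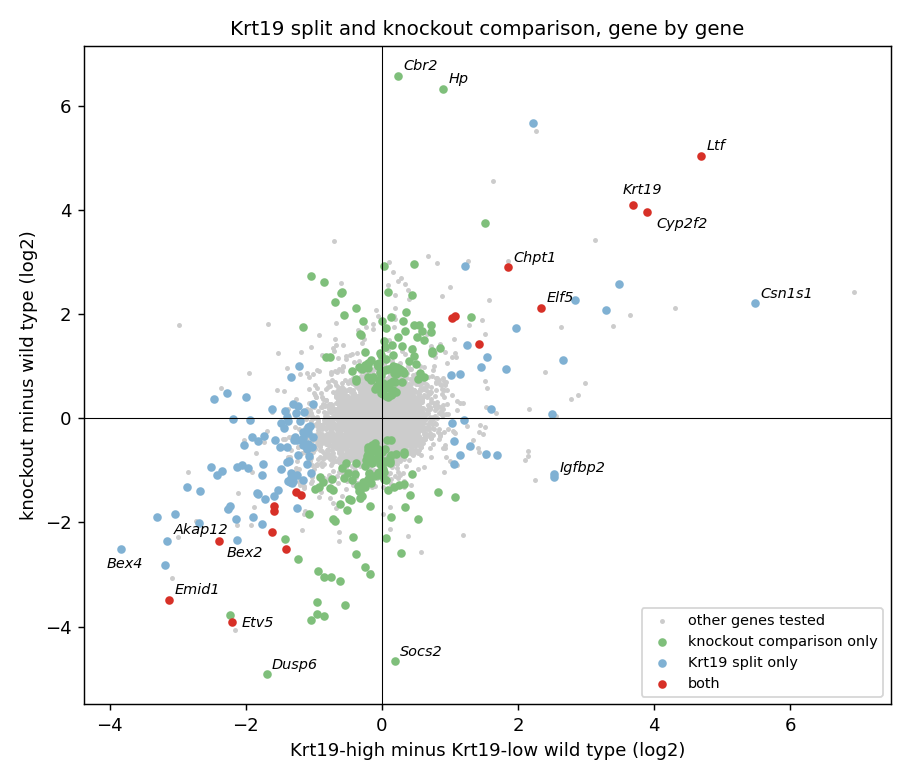
The horizontal axis is the log2 difference of the Krt19-high from the Krt19-low wild-type arrays and the vertical axis that of the knockout from all wild-type arrays, with 1 point a gene (n = 6825) coloured by the comparison in which it was counted. The 17 genes counted in both lie in the upper right (8) or lower left (9), Cbr2, Hp and Socs2 lie near 0 on the horizontal axis, and the wild-type arrays enter both axes.

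The 8 genes higher in both were Krt19, Cyp2f2, Chpt1, Ltf, Elf5, Cyb5b, Slc15a2 and Tmprss2. Krt19 was higher in the knockout by 4.08 (SE 0.97, limma adjusted p = 0.0424), Cyp2f2 by 3.96 (SE 0.97, adjusted p = 0.047) and Ltf by 5.04 (SE 1.20, adjusted p = 0.0427). Chpt1 was higher by 2.89 (SE 0.44, limma adjusted p = 0.00499) and Elf5 by 2.12 (SE 0.53, adjusted p = 0.049). Krt19 and Ltf were thus among the largest changes of the knockout with adjusted p close to the threshold. Tmprss2, a membrane serine protease, was 4.50, 4.36 and 4.22 in WT2, WT3 and WT6, 3.32, 3.41 and 3.25 in WT1, WT4 and WT5, and 4.93 to 6.50 in the knockout. Its 3 Krt19-low arrays were at background, giving at least 1.73-fold. That bound falls short of a log2 difference of 1. Cyb5b, a cytochrome b5 of the outer mitochondrial membrane, was 7.77, 7.71 and 6.88 against 5.55, 6.29 and 6.25, with 7.89 to 8.45 in the knockout. Slc15a2, a peptide transporter, was 6.54, 5.81 and 5.53 against 5.07, 4.68 and 4.93, with 6.17 to 8.25 in the knockout. On the probe sets used here, no wild-type array reached the knockout range in Chpt1, Elf5, Cyb5b and Tmprss2. In these the Krt19-high arrays lay between the other sets. For Elf5 this did not hold on its other probe set, where the Krt19-high arrays lay inside the knockout range. Of the 12 fits of the knockout comparison that each left out 1 array, Chpt1 and Tmprss2 stayed past the threshold in 12, Slc15a2 in 6, Krt19 and Cyp2f2 in 3, Elf5 and Cyb5b in 2 and Ltf in 1. Between the Krt19 sets, Tmprss2 and Slc15a2 stayed counted in 4 of 6 divisions without 1 wild-type array, and the others in all 6.

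The 9 genes lower in both were Emid1, Bex2, Etv5, Fblim1, Tulp3, Ppfibp2, St6galnac4, Arhgef1 and Tinagl1. Etv5, a transcription factor of the ETS family that ERK induces, was 8.16, 7.34 and 8.37 in WT1, WT4 and WT5, 4.99, 5.63 and 6.66 in WT2, WT3 and WT6, and 2.82 to 3.16 in the knockout, where all 6 arrays were at background. Its knockout level was below the wild-type level by at least 8.84-fold (limma adjusted p = 0.00191). St6galnac4, a sialyltransferase, was 7.71, 6.68 and 8.47 against 6.03, 5.98 and 6.64, with 3.79 to 4.90 in the knockout (-2.51, SE 0.40, limma adjusted p = 0.00633). Emid1, an EMI-domain protein gene, was 8.79, 8.81 and 8.08 against 3.89, 4.87 and 7.55, with 3.44 to 3.66, at background, in the knockout. For Etv5 and St6galnac4 the Krt19-high arrays stood between the other sets, and for Emid1 WT6 stood near the Krt19-low arrays. Ppfibp2, a liprin, was lower in the knockout by -1.78 (SE 0.36, limma adjusted p = 0.0223) and Fblim1, a filamin-binding LIM protein, by -2.19 (SE 0.49, adjusted p = 0.0332). Arhgef1 was lower in the knockout by -1.41 (SE 0.31) and Tinagl1 by -1.48 (SE 0.33). Bex2 and Tulp3 were at background in all 6 knockout arrays, at least 3.66-fold and 2.28-fold below the wild type. Etv5 and St6galnac4 stayed past the threshold in all 12 fits without 1 array, Ppfibp2 in 11, Fblim1, Tulp3, Arhgef1 and Tinagl1 in 5, and Emid1 and Bex2 in 2.

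**Figure D3:**
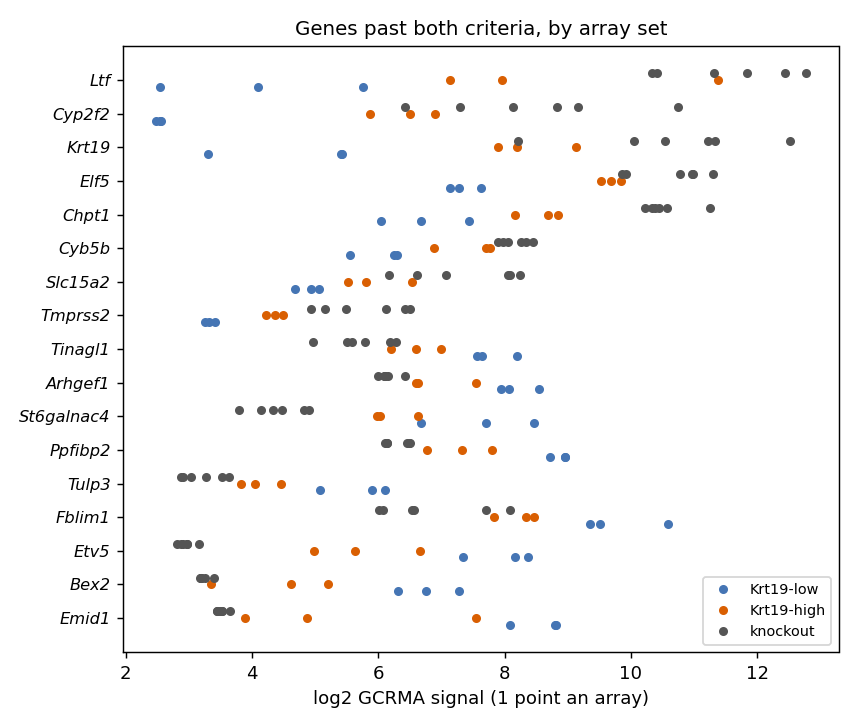
Rows are the 17 genes counted in both comparisons and the horizontal axis is the log2 GCRMA signal, with 1 point an array in the Krt19-low (n = 3), Krt19-high (n = 3) and knockout (n = 6) sets. Krt19-high arrays lie between the Krt19-low and the knockout arrays for Chpt1, Cyb5b, Etv5 and Tulp3 and reach into the knockout range for Krt19, Ltf, Cyp2f2, Slc15a2, Bex2, Fblim1 and Tinagl1.

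Outside these 17 genes, which are the knockout changes counted between the Krt19 sets, the named genes with the largest knockout changes varied in how the sets compared. Cbr2, a carbonyl reductase, was 7.96 to 9.83 in the knockout and between 1.84 and 2.41, at background, in every wild-type array, with 2.36, 2.41 and 2.17 in the Krt19-high set and 2.21, 2.19 and 1.84 in the Krt19-low set. Hp, the haemoglobin-binding protein haptoglobin, was 9.24 to 11.76 in the knockout, 5.56, 4.84 and 3.72 in WT2, WT3 and WT6, and 3.39, 4.55 and 3.49 in WT1, WT4 and WT5. Grb10, an adaptor of insulin receptor signalling, was 4.88 to 8.43 in the knockout and 3.03 to 3.74 in the wild type. The adjusted p by limma was 1.47e-07 for Cbr2, 8.3e-05 for Hp and 0.028 for Grb10. The Krt19 sets overlapped for all 3 genes, and they differed by 0.23 for Cbr2, 0.90 for Hp and 0.03 for Grb10. Sfrp2, a secreted Wnt modulator, reached 7.06 in WT3, inside the knockout range of 5.05 to 9.26, and was 3.45 or lower in the other 5 wild-type arrays. Chdh, Dcxr and Cryab, which encode choline dehydrogenase, a dicarbonyl reductase and a small heat shock protein, were higher in the knockout by 2.73 (SE 0.61), 2.61 (SE 0.50) and 2.43 (SE 0.44), with limma adjusted p of 0.0327, 0.0179 and 0.0132. Their Krt19-high means were below the Krt19-low means, by -1.04, -0.86 and -0.59, with overlap in each.

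Among genes lower in the knockout, Dusp6, a phosphatase that limits ERK, was 8.20, 6.71 and 9.43 in WT2, WT3 and WT6, 9.88, 9.25 and 10.30 in WT1, WT4 and WT5, and 2.91 to 4.69 in the knockout (-4.92, SE 0.54, limma adjusted p = 0.000958). Socs2, a feedback inhibitor of cytokine signalling, was 10.61, 9.73 and 7.19 in the Krt19-high set, 10.18, 7.74 and 9.05 in the Krt19-low set and 3.89 to 5.13 in the knockout (-4.66, SE 0.54, limma adjusted p = 0.00146). Both genes overlapped between the Krt19 sets, which differed by -1.70 for Dusp6, while all 6 wild-type arrays were above all knockout arrays. Npnt, Chn2, Stk26 and Duoxa1 were lower in the knockout by -3.76 to -3.05 and also overlapped between the sets. Col9a1, a collagen gene, and Deptor, an inhibitor of mTOR, were lower in the knockout by -3.79 and -3.52. On the probe sets used here, their Krt19-high values did not overlap their Krt19-low values. The differences of -0.85 and -0.95 stayed under the size of 1. The other Deptor probe set past the filter differed between the sets in the opposite direction. Fam174b was 3.07 in WT2, inside the knockout range of 2.89 to 3.10, and 6.56 to 8.99 in the other wild-type arrays, and its Krt19 sets differed by -2.23 with overlap.

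The number of the 228 genes for which a wild-type array fell inside the range of the 6 knockout arrays was 17, 23 and 23 in WT2, WT3 and WT6 and 15, 6 and 17 in WT1, WT4 and WT5. The Krt19-high arrays were thus at or above the Krt19-low arrays in this total, with WT2 equal to WT5. This order did not hold for the 113 genes higher in the knockout, with 8, 12 and 5 in WT2, WT3 and WT6 and 7, 4 and 10 in WT1, WT4 and WT5. For the 115 lower genes the numbers were 9, 11 and 18 and 8, 2 and 7. With the Krt19 value as a covariate in the same limma fit, which separates the genotype from Krt19 across all 12 arrays, 2 genes were past the threshold, Cbr2 (adjusted p = 0.00011) and Hp (6.24, SE 0.83, adjusted p = 0.0328). Krt19 differs between the genotypes, so this fit has less left to estimate the genotype from.

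Whether genes of the division also follow Krt19 was tested in the knockout arrays, which the division did not use. The slope on Krt19 over the 6 knockout arrays was fitted by limma for 6824 genes. No gene (0, 0.00%) had an adjusted p under 0.05, the smallest adjusted p was 0.124, and 891 genes (13.1%) had an unadjusted p under 0.05. A positive slope was found in 3362 genes (49.3%). Of the 33 genes other than Krt19 that were higher in the Krt19-high set, 20 had a positive slope, with a median of 0.08 log2 per log2. Of the 93 lower genes 34 had a positive slope, with a median of -0.09, and the median of all genes was 0.00. An unadjusted p under 0.05 was found in 12 of the 33 (36.4%) and 28 of the 93 (30.1%), in either direction. Neither Cyp2f2 nor Chpt1 increased with Krt19 over the 6 knockout arrays. The slope was -0.82 (SE 0.27, limma adjusted p = 0.291) for Cyp2f2 and -0.18 (SE 0.09, adjusted p = 0.43) for Chpt1, and KO1, the knockout array with the least Krt19, had the most of both. The slope was 2.93 (SE 0.92, limma adjusted p = 0.282) for Csn1s1, 0.08 (SE 0.17, adjusted p = 0.857) for Elf5 and -0.04 (SE 0.28, adjusted p = 0.967) for Ltf. Some of these values depended on the 2 arrays farthest from the median Krt19 value. Without them, the correlation with Krt19 was 0.88 for Elf5, 0.89 for Ltf and 0.28 for Chpt1, against 0.20, -0.06 and -0.71 over all 6. It was -0.91 against -0.78 for Cyp2f2 and 0.93 against 0.79 for Csn1s1. The arrays left are few and include KO4 and KO5. With the filter at the 75th percentile of mean signal, 1 gene had a positive slope past the threshold, Sulf2 (1.00, SE 0.10, adjusted p = 0.0396), and 3 had a negative one, Marchf6, Oat and Pole2.

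**Figure D4:**
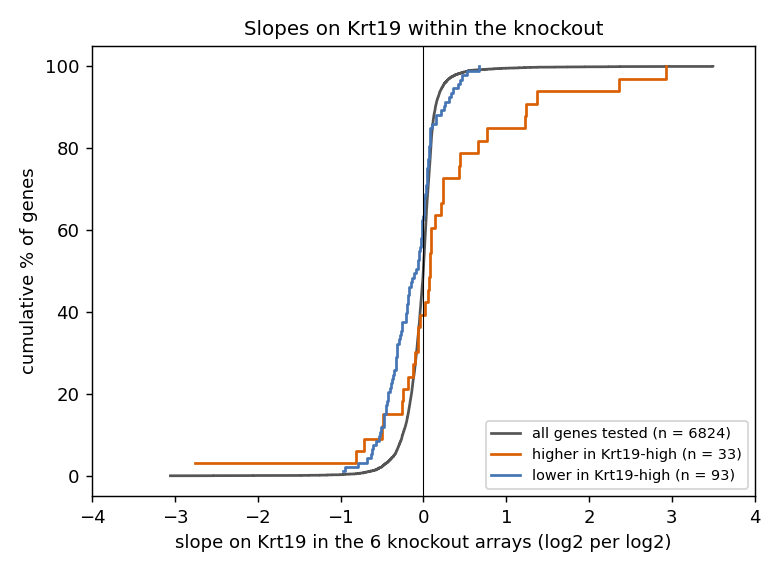
The horizontal axis is the slope of each gene on Krt19 over the 6 knockout arrays, in log2 per log2, and the vertical axis is the cumulative percentage of genes, for all 6824 genes, the 33 genes higher and the 93 genes lower in the Krt19-high wild-type arrays. The curve of the higher genes crosses 0 with 20 of 33 genes to its right and that of the lower genes with 34 of 93, and no single slope passed an adjusted p of 0.05.

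The counts of signalling and metabolic lists are read beside the shares of all genes tested, 0.498% higher and 1.36% lower between the Krt19 sets and 1.66% higher and 1.68% lower in the knockout. Among the feedback and early genes of ERK signalling, 1 of 18 tested members was lower in the Krt19-high set (Etv5) and 0 were higher, with a median of -0.30, and 5 were lower in the knockout (Dusp6, Etv5, Spred1, Spred2 and Spry2). In the list of prolactin and cytokine feedback genes, 0 of 8 were counted, and Socs2 was lower in the knockout. Of 15 genes of phosphatidylcholine and choline metabolism 1 was higher (Chpt1), with a list median of -0.20, and 5 were higher (Chpt1, Chdh, Bdh1, Chka and Gpcpd1) and 1 lower (Lpcat1) in the knockout. Of 23 genes of sterol and fatty acid synthesis 1 was higher (Thrsp), with a median of 0.38, and 0 passed in the knockout. Of 18 genes of the unfolded protein response 1 was higher, Sdf2l1, at 8.05, 7.22 and 7.52 in WT2, WT3 and WT6 against 5.84, 6.72 and 5.83. Of 13 carbonyl reductases and detoxification genes 1 was higher (Cyp2f2), and Cyp2f2, Cbr2 and Dcxr were higher in the knockout. Among 19 secreted defence genes 3 were higher, Ltf, Saa1 and Cp, the last of which encodes the ferroxidase ceruloplasmin and was 9.20, 7.93 and 8.33 against 7.82, 6.26 and 5.47. None of 31 cell division, 23 DNA replication, 22 Myc target and 25 hypoxia and glycolysis genes was counted between the Krt19 sets, with medians of 0.14, 0.21, 0.18 and -0.24. In the knockout comparison 5 cell division genes (Cdc20, Cenpf, Kif11, Mad2l1 and Ttk) and 1 DNA replication gene (Tk1) were lower and 7 hypoxia and glycolysis genes higher.

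The summed luminal signal overlapped between the sets. The summed signal of 12 luminal epithelial genes, on a log2 scale, was 13.75, 14.28 and 13.65 in WT2, WT3 and WT6 and 13.82, 13.87 and 14.37 in WT1, WT4 and WT5. Of these genes 0 of 12 were counted as different, beside 1.86% of all genes tested. All 12 were above background in at least 1 array of each set. The median difference of the list was -0.10, and 6 of the 12 genes were higher in the Krt19-high set. Between the sets, 2 of the 12 did not overlap, which is no smaller a share than the 11.7% of all genes tested. They were Muc1, an epithelial mucin, and Cd24a, a surface glycoprotein. Both were higher in the Krt19-high set, by 0.88 and 0.56, under the size of 1. The keratin list had 1 of 9 higher, which was Krt19 itself, and 1 lower, Krt23, at 4.28, 4.41 and 4.39 against 4.85, 6.01 and 5.46. The summed signal of the hormone-sensing luminal list was 5.57, 5.89 and 5.47 in the Krt19-high set, 7.48, 6.65 and 8.10 in the Krt19-low set and 5.31 to 5.62 in the knockout. Of its 6 members on the array 0 passed the filter, and Esr1, Pgr, Foxa1 and Cited1 were at background in all 6 wild-type arrays. The sum was carried by Prom1, a membrane glycoprotein gene, at 7.13, 5.96 and 7.89 in WT1, WT4 and WT5, 2.43, 4.18 and 2.43 in WT2, WT3 and WT6 and 2.25 to 2.42 in the knockout. Prom1 was named after its values were seen, and its mean over 12 arrays of 3.67 kept it out of the genes tested.

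The basal and myoepithelial sum was 9.10 to 10.62 in the Krt19-high and 9.30 to 9.90 in the Krt19-low arrays, and the macrophage sum was 10.77 to 11.09 and 10.95 to 11.64. The fibroblast sum was 10.94 to 11.90 and 10.78 to 11.45, the endothelial sum 7.52 to 7.79 and 7.57 to 7.65, and the T cell sum 6.06 to 6.23 and 6.05 to 6.14. None of 7 basal, 9 macrophage, 5 fibroblast, 3 endothelial and 2 T cell genes tested was counted as different. The same held for 3 adipocyte, 2 muscle and 2 keratinocyte genes. Of all genes tested 1.86% were counted, so a count of 0 in lists this short says nothing about these cell types. The keratinocyte sum was 10.41 in WT6 and 6.01 to 6.15 in the other wild-type arrays, with Krt6a, a keratin of stratified epithelium, at 10.25 in WT6 and 4.02 or lower elsewhere in the wild type, while Lor, Krt1, Krt10 and Krtdap were at background in all 6. WT6 was also the array that carried Eras and Saa1. It had Csn1s1, Csn2 and Csn1s2a at or near background, while its Csn3 was 13.66. The part of these markers in the result was not tested. The muscle sum was 9.01 in WT1 against 6.48 to 7.23 in the other wild-type arrays. The interferon response sum was 10.33 and 10.29 in WT2 and WT3, 8.37 in WT6 and 8.25 to 8.65 in the Krt19-low arrays, with Ifit3, an interferon-induced gene chosen after its values were seen, at 7.35 and 6.47 in WT2 and WT3 and 2.90 or lower in the other wild-type arrays. WT2 and WT3 were also the wild-type arrays with high Csn1s1, Csn2 and Csn1s2a, and the part of interferon genes in the result was not tested. The difference between the 3' and 5' actin probe sets, a measure of RNA integrity, was 1.25 to 1.33 in the Krt19-high and 1.21 to 1.34 in the Krt19-low arrays and 1.26 to 1.72 in the knockout.

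**Figure D5:**
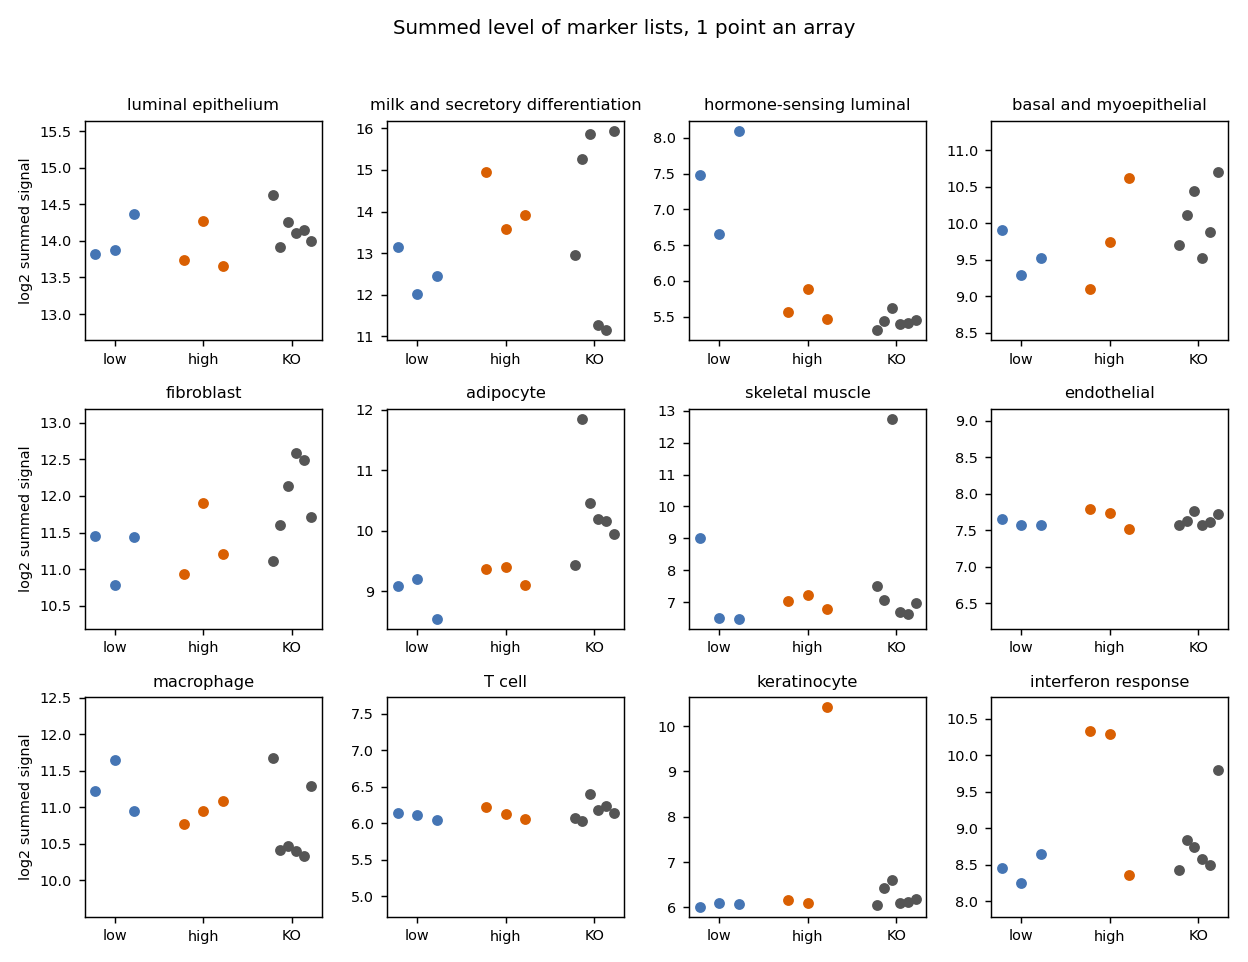
Each panel plots the log2 of the summed linear signal of 1 marker list, with 1 point an array in the Krt19-low, Krt19-high and knockout sets; vertical scales differ between panels. The luminal sums of the sets overlap, the hormone-sensing sum is higher in the 3 Krt19-low arrays than in the other 9, the keratinocyte sum is high in WT6 alone at 10.41, and the interferon sum is high in 2 of the 3 Krt19-high arrays.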

How the data were processed

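RNA of 12 mammary tumour samples was hybridised as biotin-labelled cRNA to Affymetrix mouse arrays. The deposited values are log2 signals made by the authors with GCRMA, the only tool in the submitters' processing notes; its version is not given in the sources used here. They were used as deposited, for 22690 probe sets with values from -0.07 to 14.72 and array medians from 3.87 to 4.10. GCRMA compresses differences near background, and precision is limited by how few arrays there are. The sources used here name no batch.

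A gene was its probe set of highest mean, named through the platform annotation (20393 probe sets had 1 symbol, 691 several and 1606 none listed) and updated in RefSeq GRCm38.p6 (20364 found, 12394 genes). Genes with a mean above 3.98 were tested, 6825 in all. A gene at or below background, the highest of 27 Bacillus probe sets, on all arrays of a set has only a lower bound for its fold: the bright set's mean over the dim set's mean with values raised to background.

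Krt19 divided the wild-type arrays, so that contrast has no test. The knockout comparison and the slope on Krt19 within the knockout used limma 3.58.1 (lmFit, eBayes with trend) in R 4.3.3 with Benjamini-Hochberg adjustment at 0.05. Tested on simulated data with 200 changed genes, the knockout fit over 6825 genes recovered 81% of log2 changes of 1 and 94% of changes of 2 with 14 false calls, and the slope fit recovered 49% of slopes of 0.5 and 87% of slopes of 1 with 9 false calls. In the 6 knockout arrays, slopes of 2.93 for Csn1s1, 2.38 for Csn3 and 1.22 for Cp had limma adjusted p of 0.282, 0.187 and 0.179. Slopes above 1 thus missed the threshold in these arrays, and the percentages recovered cannot be carried over to them. The count of 0 slopes past the threshold does not show that slopes of that size are absent. The rule for named genes took the 3 markers, Hunk and the 12 largest differences of each kind and direction. It also took genes counted in both comparisons and up to 4 members of each list with non-overlapping sets. The sets, lists and rule were chosen with earlier results of these data known. RefSeq promoters were found for 86 of the 113 genes so named.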

Additional observations from a re-analysis of the deposited data

Results flagged for a closer look

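In 218 checks of the 6 arrays of a group, over the genes printed, the marker lists and 4 array measures, 23 had 1 array far from the others. The cutoff would flag about 1 in 20 checks of independent normal values. Many of the genes were printed for their values in these same arrays, and lists share genes with them. The number flagged therefore cannot be set against that rate. No cause was tested for any of them.

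WT6 stood alone in the wild type for Eras at 11.41 (next array 4.44), Saa1 at 9.03 (next 3.31), Krt6a at 10.25 (next 4.02) and the keratinocyte list at a log2 sum of 10.41 (next 6.15). The first 2 of these genes are among those higher in the Krt19-high set. WT3 stood alone for Sfrp2 at 7.06 (next 3.45) and WT2 for Chdh, which was lowest there at 2.91 (next 5.42). WT1 stood apart for the muscle list at 9.01. WT5 was lowest for the adipocyte list at 8.55 and highest for the epithelial junction list at 14.02, the mesenchymal list at 12.36 and the Wnt pathway list at 11.83.

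In the knockout, KO1, the array with the least Krt19, was highest for Chpt1 at 11.25 (next 10.56), for Krt23 at 6.72 (next 4.45) and for the choline list at 12.76, and lowest for Col9a1 at 3.65 (next 8.43) and Cd24a at 11.61 (next 11.98). KO3 was highest for the muscle list at 12.74 (next 7.52), the red cell list at 5.55 and the array background at 4.00. KO4 was lowest for Hunk at 2.60 and highest for Arhgef1 at 6.43, KO2 was highest for Sdf2l1 at 8.79, and KO6 was highest for the interferon list at 9.80.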

How the results depend on the processing

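Of the counts between the Krt19 sets, 34 genes higher and 93 lower became 19 and 48 with the filter at the 75th percentile, 150 and 232 with a difference of at least 0.5, 13 and 24 with a difference of at least 2, and 19 and 40 with the sets at least 0.5 apart, a rule chosen after seeing the data. Leaving out 1 wild-type array gave 43 to 93 higher and 83 to 228 lower; with fewer arrays, sets fail to overlap more easily by construction. Of the knockout counts, 113 higher and 115 lower became 55 and 57 with no filter, 68 higher with median centring, 2 and 0 with Krt19 as a covariate, 221 and 242 at an adjusted p under 0.1, and 60 and 65 with KO4 and KO5 averaged, which was added after seeing the data. Without 1 array they were 44 to 102 and 51 to 122. The 17 genes counted in the same direction in both comparisons became 5 with no filter, 11 with the 75th percentile filter, 31 at a difference of at least 0.5 and 7 at one of at least 2, and were 8 to 28 without 1 wild-type array, when 0 to 2 went in opposite directions. No slope within the knockout passed under any setting run other than the 75th percentile filter, which gave 1 positive and 3 negative. The cause of these shifts was not tested. Deviations of arrays with the same replicate number correlated between -0.02 and 0.14. Such values cannot show whether the numbers pair the samples, and the labels do not say. With the replicate block, 28 genes were higher and 41 lower in the knockout. Quantile normalization, the median over probe sets, background-raised values and the other variance models kept every count within 1.5 times. No called difference of a named gene turned its direction under the settings run. Counting each named gene once a setting, knockout calls held in 598 cases and lost the threshold in 281. Between the Krt19 sets, 8 values of named genes moved by at least the larger SD of the sets. For lists, 25 medians moved by at least a fixed size that is not a measure of spread. Genes near background have compressed differences, and 3 arrays a set give no error for the choice of sets.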
